A study of Rattus norvegicus with 6 samples.

Results

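The genes described are 6 interferon-induced genes, Irf7, Usp18, Ifit1, Oas1i, Oasl2 and Rtp4, in the kidney of low birth weight (LBW) rats. They were taken from the study's own list of mRNAs that differed between LBW and control kidneys, which names 100 genes on 129 probes, and were therefore selected on the contrast shown here. They are read by 7 probes (2 for Usp18, 1 for each other gene) of the 30367 mRNA probes on the array. The LBW against control differences of these 7 probes are a description of how they were chosen, and nothing is supported with them.

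The kidneys came from male Sprague Dawley rats at postnatal day 10. LBW pups were born to dams on a low-protein diet, which was kept up through pregnancy and into early lactation. Control pups had a normal birth weight, and their dams ate a diet of normal protein content. Total RNA of 3 LBW and 3 control kidneys was hybridised to one-colour Agilent arrays, 1 per rat, and the litters of the rats are not stated in the labels.

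Interferons are secreted when a cell senses foreign or misplaced nucleic acid, and they act through surface receptors that lead to phosphorylated STAT proteins and IRF9 in the nucleus. That complex binds the interferon-stimulated response element in the promoters of a shared group of genes, whose products block viral replication, amplify the response or shut it down. Kidney cells and the leukocytes that reside among them are both able to respond. In whole tissue, fewer cells of a responding type and less RNA per cell cannot be told apart.

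Levels are given as log2 of the quantile normalized intensity of a probe, and differences as LBW minus control on the same scale. On each array 79.9% to 83.6% of spots were well above background by the scanner's flag, and 0 spots were saturated. Control 1 stood apart from the other arrays. Across tested probes its correlation with each of them was 0.984 to 0.988, whereas the other arrays correlated with each other at 0.989 to 0.994. Each member difference, or for Rtp4 its bound, is therefore given with and without that array. All arrays were on 1 slide, where the 3 control arrays and LBW 1 shared row 1 and LBW 2 and LBW 3 were in row 2.

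Irf7 encodes the transcription factor that amplifies type I interferon production, and it is itself induced by interferon. Its probe A_44_P1039994 read 5.60, 6.86 and 6.72 in control replicates 1, 2 and 3 and 4.90, 4.89 and 4.58 in LBW replicates 1, 2 and 3. Every LBW array lay below every control array, the LBW arrays were close together, and control 1 was the lowest of the controls. The control mean was 6.39 ± 0.69 and the LBW mean 4.79 ± 0.19 (SD, n = 3 each). The difference was -1.60 ± 0.32 (limma standard error), which is a 3.03-fold lower level in LBW kidneys, and it was -1.998 without control 1. All 6 arrays were well above background for this probe.

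Usp18 encodes the protease that removes the ubiquitin-like modifier ISG15 from proteins, and it also restrains signalling at the type I interferon receptor. Probe A_44_P284200 read 5.91, 6.81 and 6.70 in controls and 4.89, 5.19 and 4.73 in LBW kidneys, and all 6 arrays were well above background. The groups did not overlap, and the lowest control was again control 1. The difference at this probe was -1.54 ± 0.25, a 2.91-fold lower level, and -1.82 without control 1.

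The other Usp18 probe, A_64_P157059, read 4.68, 6.14 and 6.14 in controls and 2.94, 3.87 and 1.89 in LBW kidneys. LBW 3 was not well above background, so 2 of the 3 LBW arrays measured it. Its difference was -2.75 ± 0.57, larger in size than that of the first Usp18 probe, and -3.24 without control 1. With LBW 3 raised to the lowest level of any probe well above background on that array, it was -2.64. Both Usp18 probes had the same order of group means and both had control 1 and LBW 3 as the lowest array of their group. After each value was centred on its group mean, they correlated at 0.901 over the 6 arrays. Whether the difference in size between the probes follows from their signal, their position or the transcripts they read was not tested.

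Ifit1 encodes a protein with tetratricopeptide repeats that binds viral RNA and hinders its translation. Its probe A_44_P236197 read 4.62, 5.74 and 5.11 in controls and 3.04, 2.72 and 1.82 in LBW kidneys. The gap between the lowest control and the highest LBW array was 1.58, wider than at any other member probe. Only LBW 1 was well above background, so the LBW mean of 2.52 ± 0.63 rests on 1 array that measured the probe. The difference of the readings as they stand was -2.63 ± 0.37, and -2.90 without control 1. With dim LBW arrays raised in the same way as for Usp18, it was -2.50, and -2.76 without control 1.

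Oas1i and Oasl2 belong to the oligoadenylate synthetase family, whose enzymatically active members make short oligoadenylates on double-stranded RNA and so switch on RNase L. Oas1i was read by probe A_44_P226999 at 6.33, 6.71 and 7.07 in controls and 4.02, 5.58 and 4.59 in LBW kidneys. Here the LBW arrays were spread more widely than the controls, with SDs of 0.79 and 0.37, and LBW 1 was the lowest array. The difference was -1.98 ± 0.38, a 3.94-fold lower level, and -2.16 without control 1.

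Oasl2 was read by probe A_44_P126061 at 7.12, 7.85 and 8.25 in controls and 6.12, 6.55 and 6.43 in LBW kidneys. All 6 arrays were well above background for Oas1i and for Oasl2, and in neither did the groups overlap. The Oasl2 difference was -1.37 ± 0.28, a 2.58-fold lower level, and -1.68 without control 1. With this processing it was the smallest of the 7 in size and the one nearest to the 2-fold limit of the study's list, whereas with normexp background correction or within row 1 of the slide Rtp4 had the smallest difference. No probe of a member gene outside that list is named in the sources used here, so no value just beyond the limit can be given.

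Rtp4 encodes a chaperone of membrane receptors whose expression is induced by interferon. Its probe A_42_P736315 read 3.32, 4.22 and 4.32 in controls and 2.88, 1.84 and 0.89 in LBW kidneys. No LBW array was well above background, so the LBW level is known only as a bound. With each LBW array set to the higher of its own value and the lowest level of any probe well above background on that array, Rtp4 was at least 2.77-fold lower in LBW kidneys, and at least 3.45-fold without control 1. The scanner's flag is set spot by spot, and a spot can fail it above the lowest level that passed, as that of Rtp4 did on LBW 1, where its own value was used. This bound and those given for Slfn3 and S100a8 hold for this normalization and background subtraction only, and the Rtp4 difference was smaller in size with another background correction.

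**Figure D1:**
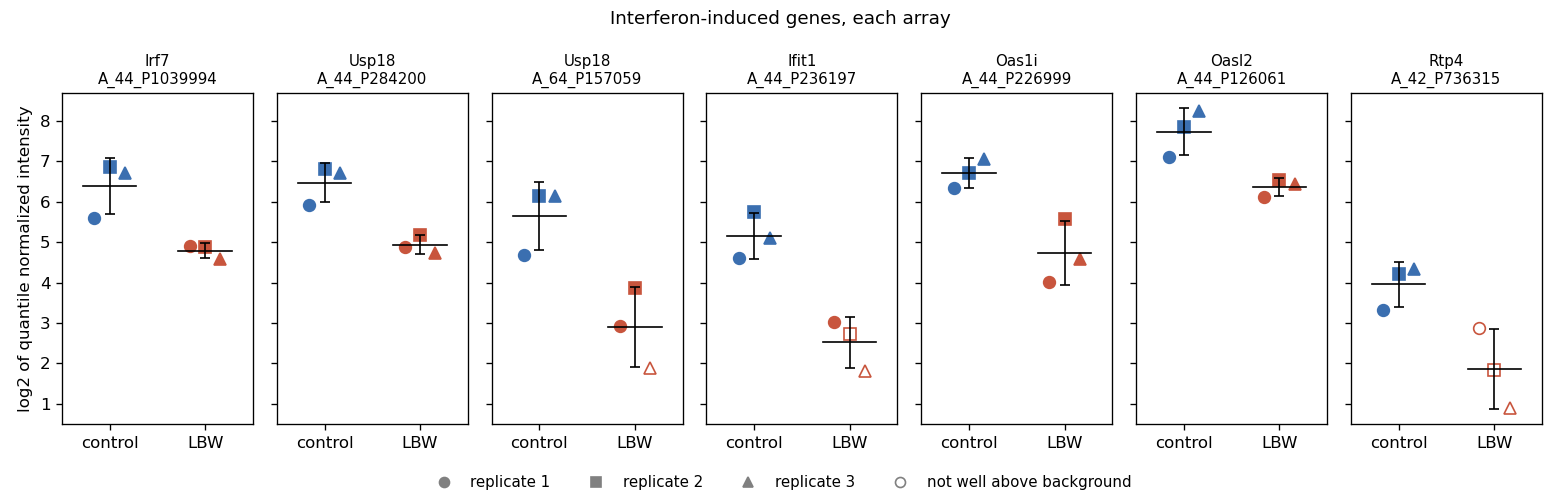
Log2 of the quantile normalized intensity of the 7 probes in each array (vertical axis), control in blue and LBW in red, with the mean and SD of 3 arrays as black lines and open symbols for arrays not well above background. In each panel the 3 LBW arrays lie below the 3 control arrays, control replicate 1 is the lowest control, and for Rtp4 all 3 LBW symbols are open.

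The 7 probes had differences from -1.37 to -2.75 with a median of -1.98, where the median of all 33608 tested probes was 0.00. These values take dim readings as they stand, and the median was -1.60 with Rtp4 at its bound. Without control 1 the range was -1.68 to -3.24 and the median -2.16. All 7 probes passed the filter on dim probes, but 3 of them (Usp18 A_64_P157059, Ifit1 and Rtp4) passed only through the control group, and such a probe had to be higher there.

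At the study's thresholds, 2-fold or more with an unadjusted p of 0.05 or less, here the p of limma, all 7 probes were lower in LBW kidneys, beside 0.452% of all tested probes. With the methods' t-test in its place all 7 were so too, beside 113 of all tested probes. In all 7 the groups did not overlap, beside 12.2% of tested probes that were lower with no overlap. With limma and adjustment over all tested probes, 0 of the 7 and 0.0952% of tested probes were lower at an adjusted p under 0.05, although each of the 7 had an unadjusted p of 0.05 or less. Under 15 of 18 alternative settings, the methods' t-test and normexp with an offset of 50 among them, 0 member probes were lower at an adjusted p under 0.05, beside 0 to 74 of all tested probes. The other 3 were trended and robust variances (2 of the 7, beside 129 of all), leaving out control 1 (2, beside 13) and normexp with no offset (1, beside 56). Because the members were chosen by this contrast, nothing about them is read from these counts. An exact permutation test of 3 against 3 arrays cannot go below p = 0.10.

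The spots were dim. The raw mean intensity of the 7 member spots ranged from 21.6 for Rtp4 in LBW 3 to 342 for Oasl2 in control 3, over local backgrounds of 15 to 22. For Rtp4 the raw intensity was 1.81 to 2.60 times the local background in controls and 1.35 to 1.74 times in LBW kidneys. For Oasl2 the same ratios were 11.7 to 20.1 and 5.46 to 7.77. Each member probe had 1 spot per array, and 0 of these spots carried an outlier flag.

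The size of the differences depended on how background was treated. With normexp background correction and an offset of 50, which is as large as many of these intensities, the differences ran from -0.26 for Rtp4 to -1.0025 for Oasl2, and 1 of the 7 probes, that of Oasl2, stayed at 2-fold or more. With the same correction and no offset, an alternative chosen after the data were seen, they ran from -1.05 for Rtp4 to -1.96 for Usp18 A_64_P157059, and all 7 were at 2-fold or more. Of all 33608 tested probes, 152 were lower past the study's thresholds in the main processing, 23 with that offset and 84 with none. The direction of the 7 differences was the same with both corrections.

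Within row 1 of the slide, LBW 1 alone could be set against the 3 controls. As the groups did not overlap at any of the 7 probes, LBW 1 had to lie below every control array in this row. The differences there were -1.49 for Irf7, -1.59 and -2.71 for the Usp18 probes, -2.12 for Ifit1, -2.69 for Oas1i, -1.62 for Oasl2 and -1.08 for Rtp4, which was not well above background on that array. Row 2 held LBW arrays only and gives no comparison. With the row as a block the differences are these same values, which rest on 1 LBW array.

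**Figure D2:**
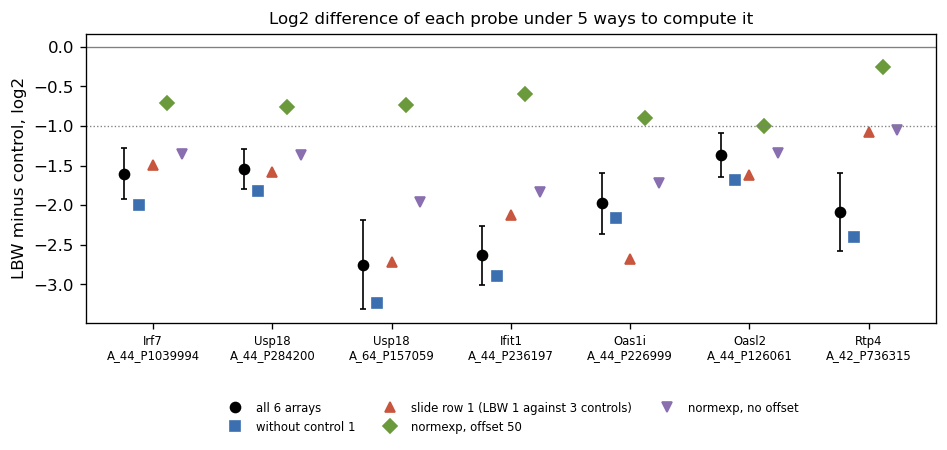
LBW minus control in log2 units (vertical axis) for the 7 probes, with all 6 arrays (black, bars are limma standard errors), without control replicate 1, within slide row 1, and with normexp background correction with an offset of 50 or none; the dotted line marks a 2-fold lower level. All values are below 0, and with the offset of 50 those other than Oasl2 lie between 0 and the dotted line.

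The genes also varied within the groups. Averaged over the 6 genes after centring each on its mean, the levels were 0.36, 1.29 and 1.30 in control replicates 1, 2 and 3 and -0.87, -0.67 and -1.42 in LBW replicates 1, 2 and 3. Control 1 lay between the other controls and the LBW kidneys and was the lowest control at all 7 probes. Among all tested probes control 1 was the lowest control in 33.2%, and among the 81 other probes of the study's list that were lower in LBW kidneys it was so in 23. LBW 3 was the lowest LBW array at 5 of the 7 probes, the exceptions being Oas1i and Oasl2, beside 35.3% of all tested probes. At 3 of those 5 (Usp18 A_64_P157059, Ifit1 and Rtp4) LBW 3 was not well above background.

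With group means removed, the 21 pairs of member probes correlated over the 6 arrays with a median r of 0.66 and a range of -0.12 to 0.96. Irf7 and Usp18 A_44_P284200 were the closest pair, at 0.956. Ifit1 followed Rtp4 at 0.873 and Oas1i at 0.058, and the lowest value was that of Oas1i with Rtp4. For Rtp4 0 of the 3 LBW arrays and for Ifit1 1 of the 3 were well above background, so the values of these genes rest in part on readings near background. All 21 values describe 6 arrays and share the deviation of control 1.

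The probes most like the members were sought by their Pearson r with the mean of the 6 genes over the 6 arrays, which for the most part reflects the difference between the groups. Of 33530 other tested probes with complete values, 137 had an r of at least 0.95, and 128 of these carry no gene symbol in the study's list of mRNAs. The 10 named probes with the highest r had values of 0.947 to 0.975. All of them come from the same list of changed mRNAs, so their lower level in LBW kidneys is again how they were chosen.

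The schlafen genes, a family induced by interferon in leukocytes and tied to the control of lymphocyte growth, held 3 of those 10 places. Slfn3 probe A_64_P161399 read 3.46, 6.17 and 5.79 in controls and 1.92, 2.29 and 1.65 in LBW kidneys (r 0.975, and 0.904 with group means removed). No LBW array was well above background for it. With LBW arrays raised as for Rtp4, and under the same limits, Slfn3 was at least 7.46-fold lower there, and at least 13.4-fold without control 1. The other Slfn3 probe, A_44_P294675, gave at least 3.73-fold, and 5.87-fold without control 1, and its r was 0.965. Slfn2 probe A_64_P048887 read 7.13, 7.42 and 7.86 in controls and 6.08, 6.45 and 6.15 in LBW kidneys, a difference of -1.24 ± 0.20 with an r of 0.966.

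The other 7 places went to Pmfbp1 (r 0.975), the paired immunoglobulin-like receptor gene Pira2 (0.970), the UDP-glucuronosyltransferase gene Ugt2b (0.962), Arhgap30 (0.957), the mitochondrial aminotransferase gene Agxt2 (0.952), LOC100910885 (0.951) and Ly49si2, a gene of the Ly49 receptor family of natural killer cells (0.947). For Ugt2b and Ly49si2, as for Slfn3, 0 LBW arrays were well above background, so their r rests in part on readings that are not measured levels. Once group means were removed the r of the 10 probes ranged from 0.58 for Agxt2 to 0.92 for Pmfbp1, so within the groups some of them followed the members loosely. A lncRNA probe listed as LOC100909909, named here after its values were seen, had an r of 0.980, and 0.978 with group means removed. It read 5.40, 6.24 and 6.29 in controls and 4.71, 5.18 and 4.33 in LBW kidneys.

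The rest of the interferon pathway could not be examined by name. Lists of ligands, receptors, signalling proteins, nucleic acid sensors, brakes and other interferon-induced genes were drawn up, 164 genes beside the members, but the sources used here pair probes with symbols only for the study's lists of changed RNAs. Of these 164 genes, 2 had a named probe, and both were the schlafen genes above. The kidney's own defining markers could not be looked up for the same reason.

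Of 94 marker genes of 15 cell types, 4 had a named probe, and all 4 were named because they stand in the list of changed mRNAs. Values of 3 of them are given. Lyz2, the lysozyme of macrophages and other myeloid cells, read 6.50, 7.29 and 7.17 in controls and 5.45, 5.84 and 5.93 in LBW kidneys at probe A_64_P025286, a difference of -1.25. For S100a8, a calcium-binding protein of neutrophils, 0 LBW arrays were well above background. By the rule used for Rtp4, and under the same limits, its level was at least 1.98-fold lower at probe A_44_P1055780. Igll1, part of the pre-B cell receptor, read 9.24, 8.62 and 8.77 in controls and 7.26, 7.05 and 6.999 in LBW kidneys at probe A_64_P062275.

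These 3 markers of immune cells were thus lower in the same kidneys as the interferon-induced genes, and their part in the result was not tested. Within the groups they did not move alike. With group means removed, the r with the members was 0.555 for Lyz2, -0.18 for S100a8 and -0.62 for Igll1. The value for S100a8 rests in part on LBW readings that were not well above background. Control 1, the lowest control for the members and for Lyz2 and S100a8, was the highest control for Igll1.

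The probe sequences are shown because the members belong to families of related genes, in which a probe could read a neighbour. In the RefSeq table of assembly GRCr8, Ifit1 is flanked by Ifit1bl, Ifit3 and Ifit2, Oas1i by Oas1d, Oas1a, Oas1h and Oas1f, Oasl2 by Oasl, and Rtp4 has Rtp2 and Rtp1 near it. Each probe is 60 bases long, with 40% to 53.3% G and C. Capitals mark the longest stretch that a probe shares, on either strand, with any of the other 40350 probes of the array, which was 13 to 15 bases, so none of the 7 overlapped another probe. Transcripts of the related genes were not compared here.
Irf7 A_44_P1039994: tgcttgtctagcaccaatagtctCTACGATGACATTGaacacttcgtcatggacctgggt
Usp18 A_44_P284200: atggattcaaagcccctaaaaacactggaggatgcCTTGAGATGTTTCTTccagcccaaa
Usp18 A_64_P157059: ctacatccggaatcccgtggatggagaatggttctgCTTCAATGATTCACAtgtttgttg
Ifit1 A_44_P236197: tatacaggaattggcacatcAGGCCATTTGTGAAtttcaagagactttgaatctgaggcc
Oas1i A_44_P226999: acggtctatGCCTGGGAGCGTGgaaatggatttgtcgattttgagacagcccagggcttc
Oasl2 A_44_P126061: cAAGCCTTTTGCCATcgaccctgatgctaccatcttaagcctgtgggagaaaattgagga
Rtp4 A_42_P736315: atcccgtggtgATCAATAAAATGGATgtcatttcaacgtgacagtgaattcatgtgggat

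What the members share beyond the measured contrast was looked for in their promoters. RefSeq promoters of assembly GRCr8 were matched by symbol for 3 of the 6 genes, Irf7, Oas1i and Oasl2, and not for Usp18, Ifit1 and Rtp4. The core of the interferon-stimulated response element was searched as GAAA, any 2 bases and GAAA again, on both strands, over 250 bases before and 50 after the start. All 3 promoters held it, beside 3.92% of all 33469 promoters. The members were taken as interferon-induced genes, so such a match may follow from that choice and is no result about these kidneys. In Irf7 the match lay 69 to 60 bases before the start, on the strand opposite to the gene. In Oas1i a pair of overlapping matches lay 36 to 21 bases before the start, and in Oasl2 a match on the opposite strand lay 151 to 142 bases before it.

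The 250 bases before the start are printed with these matches in capitals, for Irf7 at chr1:205800024-205800273 (minus strand), Oas1i at chr12:41284976-41285225 (plus strand) and Oasl2 at chr12:47383186-47383435 (minus strand).
Irf7: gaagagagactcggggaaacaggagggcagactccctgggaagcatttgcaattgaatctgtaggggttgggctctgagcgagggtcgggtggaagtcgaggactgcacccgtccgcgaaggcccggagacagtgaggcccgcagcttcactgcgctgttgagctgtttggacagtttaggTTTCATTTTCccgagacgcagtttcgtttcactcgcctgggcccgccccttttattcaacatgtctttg
Oas1i: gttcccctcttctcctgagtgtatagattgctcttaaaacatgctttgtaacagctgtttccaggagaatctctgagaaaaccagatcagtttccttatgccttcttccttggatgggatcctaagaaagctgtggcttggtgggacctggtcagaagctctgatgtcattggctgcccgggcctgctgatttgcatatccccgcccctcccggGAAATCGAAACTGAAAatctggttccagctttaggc
Oasl2: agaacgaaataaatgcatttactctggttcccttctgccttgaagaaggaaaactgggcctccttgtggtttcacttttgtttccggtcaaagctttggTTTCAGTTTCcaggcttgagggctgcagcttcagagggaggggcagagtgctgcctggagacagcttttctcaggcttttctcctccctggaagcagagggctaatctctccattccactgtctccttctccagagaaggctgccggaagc

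Some genes have several promoters in that table. Counted once per gene, with a match in any of its promoters, the same letters stood in 4.12% of all 27457 genes and in 35 of 59 matched genes (59.3%) of the rest of the interferon-induced list, among them Ifit1bl, Ifit3, Oas1a, Oas3 and Rsad2, whose levels could not be read here. They stood in 2 of 44 matched genes (4.55%) among the other listed mRNAs that were lower in LBW kidneys, Mapk10 and Ugt2b, which are named because there were so few. The promoters of Slfn2 and Slfn3 held no such match in this window. The gamma-activated sequence, searched as TTCNNNGAA, was in 0 of the 3 member promoters and in 8.87% of all promoters. Per gene it was in 9.39% of all genes, in 14 of the 59 (23.7%) of the rest of the interferon-induced list and in 6 of the 44 (13.6%) among the other listed mRNAs that were lower, Slfn2 and Slfn3 included. A match describes letters in a promoter and is no evidence that a factor was bound in these kidneys.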

How the data were processed

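Per the file headers and the submitters' notes, one-colour arrays were scanned and read with Agilent Feature Extraction 10.7.1.1. The deposited values of a spot are its intensity after background subtraction, its raw mean and background intensities, and flags. The authors also deposited log2 values normalized between arrays, which were an alternative here. Quantile normalization of the intensities ran over 61411 non-control spots, with a floor of 1 before log2. Spots with an outlier flag were dropped, and the remaining spots of a probe averaged. A probe was well above background where a 0.5 share of its kept spots was. Probes so on all 3 arrays of either group were fitted with limma 3.58.1 in R 4.3.3, with two-sided p-values adjusted by Benjamini-Hochberg over this whole set. Other steps used Python 3.11.15, numpy 2.4.6 and pandas 2.3.3. The fit was tested on simulated data.

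Gene symbols come from the study's supplementary lists. The members and gene lists were chosen with earlier results of these data known. Named genes were all member probes, the 10 listed mRNA probes most like them, and listed marker and schlafen genes. Of the listed marker genes, 1 is not reported here. Planned tests of other interferon pathway genes were not run, since their probes are unnamed here. The number of arrays limits precision.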

Additional observations from a re-analysis of the deposited data

How the results depend on the processing

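Signal over background limits the dim probes, Rtp4 most of all. Of 123 single-probe differences under an alternative, 46 could not move by construction. The other 77 were all negative, and 67 of them moved by less than 1 SD. Of the remaining 10, 8 came from normexp and the others, Oas1i and Rtp4, from the slide row as a block. The negative sign was fixed where single arrays were left out and with the slide row, since the groups did not overlap at any member probe. The median difference of the member probes, -1.98, was -0.74 with normexp and an offset of 50, and -1.36 with no offset. The number of member probes past the study's thresholds was 7 of 7, beside 152 of all 33608 tested probes that were lower. With that offset it was 1, beside 23 of all, since the offset compresses low intensities. Where every array had to be well above background it was 4, beside 87 of 32321, since that filter kept 4 members. With the slide row as a block, which rests on 1 LBW array, the differences were those given above for row 1.

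Over all tested probes limma gave 48 at an adjusted p under 0.05 (32 lower and 16 higher). This count was 99 with normexp and 77 with no offset, 182 with trended and robust variances, 3 with no filter, 2 with the methods' t-test, and 7 with the slide row as a block. It was 3 to 25 when single arrays were left out, which leaves fewer arrays in the fit. For the other changes the cause was not tested. With the replicate block it was 0 by limma, with 2764 probes lower and 2075 higher at an unadjusted p under 0.05, and all 7 member differences were as before. Arrays with the same replicate number shared only that number: their deviations from the group means correlated at 0.030, 0.059 and -0.014, and not every array correlated best with its own number.

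The number of probes at an r of at least 0.95 with the members, 137, was 364 with group means removed, of which 16 were among the 137, and 269 to 693 when single arrays were left out, which leaves fewer points per correlation. The interferon pathway tests could not be run under any setting.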
